A study of Zea mays with 18 samples.

Results

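The response of maize to renewed iron was compared between roots and shoots. The comparison used 12 of the 18 RNA-seq libraries of the series, chosen by their group labels, with 3 biological replicates in each of 4 groups. All plants were the wild-type inbred W22, grown hydroponically for 12 days and then kept without iron for 3 days. Deficient plants then received fresh iron-free solution and resupplied plants received solution with 0.1 mM FeSO4-EDTA. Roots and shoots of both were frozen separately 24 hours later. Every group had thus passed through iron deprivation, and the iron-sufficient libraries did not enter the test. The labels leave unsaid how many plants went into a library, and whether libraries of both organs share plants.

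The measure is the organ difference. For each gene it is the root effect, log2(resupplied/deficient) in roots, minus the same shoot effect. A negative organ difference means that the gene went lower, or rose less, in roots than in shoots. Of 40690 genes in the files, 27596 had enough counts to be tested. Among these, 21057 had a mean of at least 1 CPM (CPM, a gene's counts scaled by the size of its library) in roots and in shoots and are called both-organ genes, and the 6539 others are described apart. One further gene passed that level but not the count filter and was not tested. The mean runs over both conditions of an organ, so a gene that is high in only 1 condition can pass. "Called" means a Benjamini-Hochberg adjusted p under 0.05 over all genes tested in edgeR's quasi-likelihood F-test, and "rose" and "fell" refer to calls within 1 organ in the same fit.

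Grasses such as maize take up iron by secreting phytosiderophores, small molecules that chelate ferric iron, and by importing the chelate into root cells. Iron then moves in the xylem to the shoot, where chloroplasts are a main user of it. Roots adjust uptake to the iron around them and to signals from the shoot, so the organs can respond differently to the same supply. The title of the series names strigolactones, hormones made largely in roots. The files give W22 gene identifiers without names, and 0 of them occur in the B73 name table at hand. No pathway gene or organ marker could therefore be looked up, no function is given to any identifier, and no sequence could be matched to one.

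The 12 libraries held 63058129 to 84318039 estimated counts, and each had a count for 27122 to 27550 genes. The median SD of log2 CPM over both-organ genes was 0.160 in deficient roots, 0.144 in resupplied roots, 0.121 in deficient shoots and 0.128 in resupplied shoots (n = 3 each). The organ labels were checked with 50 genes per organ that were abundant in that organ and lowest in the other in sufficient plants. The shoot genes reached 0.0187 to 0.0336% of their shoot level in 5 of the 6 root libraries and 0.137% in resupplied root library 1. The root genes reached 0.0786 to 0.195% of their root level in the shoot libraries.

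Roots and shoots responded differently to renewed iron at 349 of the 21057 both-organ genes, or 1.66%. Over all 27596 genes tested, 413 were called (1.5%), 178 with a positive (0.645%) and 235 with a negative difference (0.852%). Among the 349 both-organ genes the organ difference was negative for 200 (0.95%) and positive for 149 (0.708%). Its median size there was 1.07 log2 units, and it reached at least 1 log2 unit, a 2-fold difference between the organs' responses, at 193 genes (0.917%). The split by direction depended on the scaling. With TMM scaling done within each organ 176 were negative and 172 positive, and with total-count scaling 139 were negative and 255 positive. A replicate block joining root and shoot libraries of 1 number, which may or may not share plants, gave 39 both-organ calls. In RNA from whole organs, fewer cells of a type and less RNA per cell cannot be told apart.

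The number of genes called rested on single libraries. It was 537 without deficient root library 3, with 269 negative and 268 positive. Leaving out deficient shoot library 1, 2 or 3 gave 228, 225 and 202 calls. Leaving out resupplied shoot library 1, 2 or 3 gave 215, 203 and 218. All 349 genes kept their sign when any 1 of the 12 libraries was left out, and 149 kept their call every time. The 349 were chosen by the full fit, and these fits reuse most of its libraries, so a kept sign is close to forced. Those 149 comprised 87 negative and 62 positive genes with a median size of 1.25 log2 units, and 105 of them were at 2-fold or more. Without resupplied root library 1, which held the most signal of shoot genes, 339 were called, and 255 of these were among the 349.

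Most genes that answered to iron in 1 organ could not be shown to answer differently in the other. In roots 579 both-organ genes rose (2.75%) and 552 fell (2.62%), and in shoots 602 rose (2.86%) and 522 fell (2.48%). Of the 1131 genes called in roots (5.37%), 188 had a called organ difference, or 16.6%, and of the 1124 called in shoots (5.34%) 174 had one, or 15.5%. Of 876 genes called in roots and not in shoots, 156 had a called organ difference, so for the other 720 a difference between the organs was not shown. Of 869 called in shoots and not in roots the difference was called for 142.

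Both effects were called at 255 genes, and 229 of these moved the same way in both organs, or 1.09% of both-organ genes. Of the 229, 120 rose in both and 109 fell in both, and the organ difference was called for 6 of them. The remaining 26 genes moved in opposite directions, and the organ difference was called for each. Opposite effects add up in the difference, so 2 opposite calls nearly fix that call. The median effects of the 120 shared risers were 0.48 in roots and 0.49 in shoots, and those of the 109 shared fallers were -0.78 and -0.76 (log2). The number of shared genes moving the same way ran from 110 to 339 when 1 library was left out. The fits lacking deficient shoot library 1, 2 or 3 gave 110, 130 and 126, and those lacking resupplied shoot library 1, 2 or 3 gave 140, 117 and 112. Those lacking deficient root library 1 or 2 gave 121 and 126, and the fit lacking resupplied root library 2 gave 131.

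**Figure D1:**
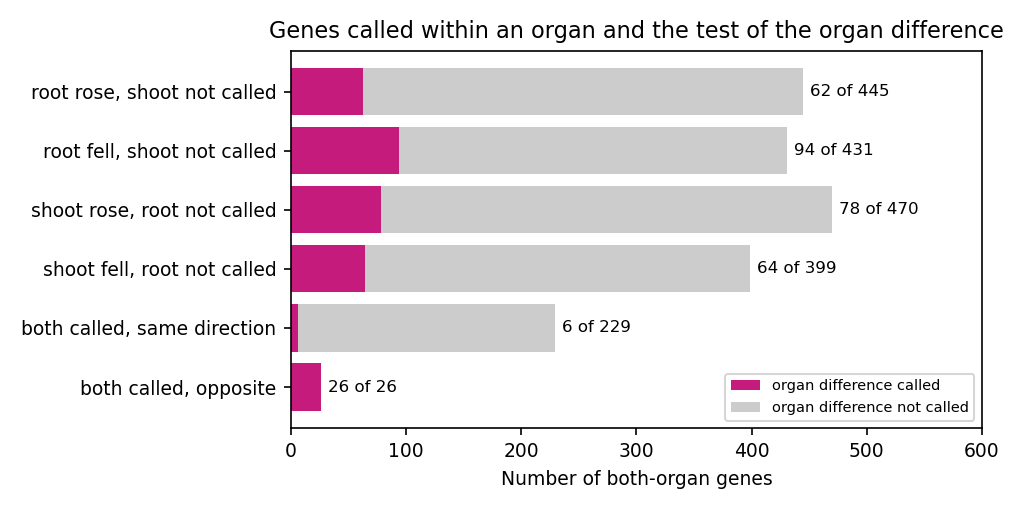
Bars give the number of both-organ genes by their calls within roots and shoots, and the coloured portion gives those whose organ difference was also called. The coloured portion is 62 of 445, 94 of 431, 78 of 470 and 64 of 399 for genes called in 1 organ, 6 of 229 for shared direction and 26 of 26 for opposite direction. For opposite direction that portion is nearly fixed by the choice of genes.

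Root and shoot effects use separate libraries, so the sign of 1 can be set beside the call of the other. Among the 1131 root-called genes, 73.7% had a shoot effect of the same sign, and among the 1124 shoot-called genes 74% had a root effect of the same sign. The share over all both-organ genes was 60.6%. Genes that rose in roots had a median shoot effect of 0.19, and genes that fell in roots had one of -0.17 (log2). Across the 21057 both-organ genes the effects had a Pearson correlation of 0.26 and a Spearman correlation of 0.268, a description over genes, which are not independent replicates.

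**Figure D2:**
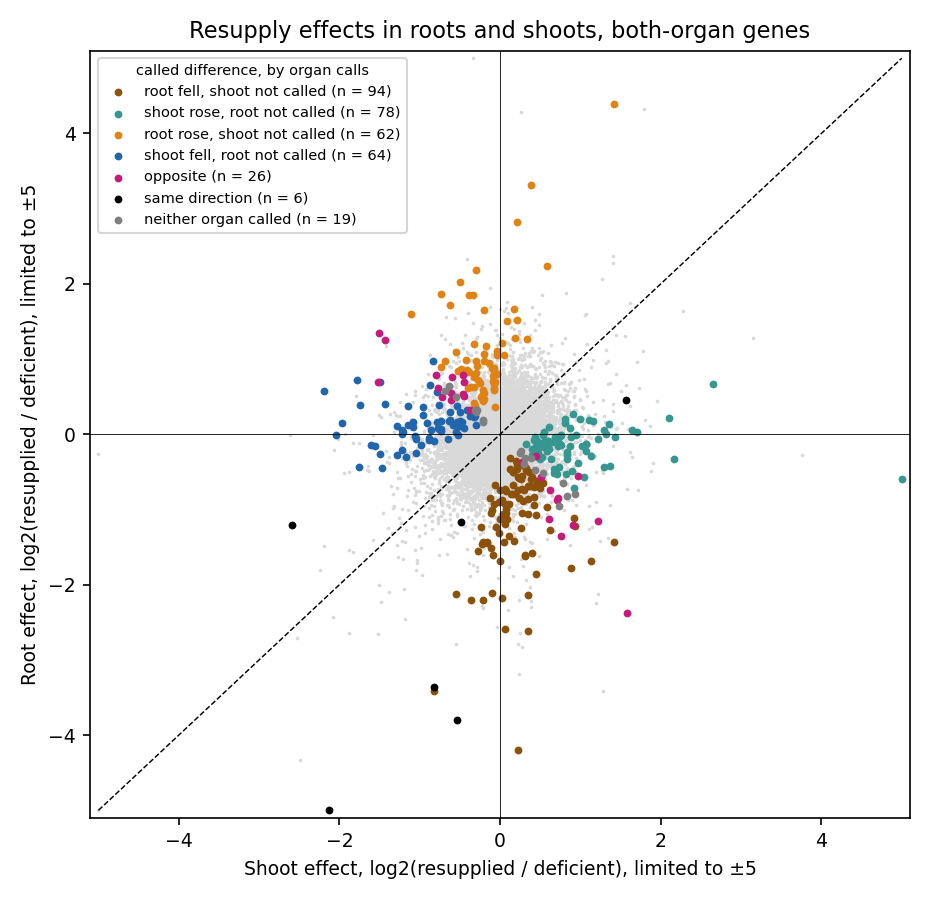
Each point is a both-organ gene, with its shoot effect on the horizontal and its root effect on the vertical axis, both as log2(resupplied/deficient) limited to ±5. Grey points have no called organ difference, coloured points are the 349 called genes by their calls within the organs, and the dashed line marks equal effects. Most coloured points lie along the axes, with a change in 1 organ and a small effect in the other.

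Most of the 349 genes fell into 4 large classes in which 1 organ moved and the other was not called. The largest held 94 genes that fell in roots, with a median root effect of -0.95 (quartiles -1.43 and -0.69) and a median shoot effect of 0.19 (log2). Another 62 genes rose in roots, with medians of 0.90 in roots and -0.21 in shoots. In 78 genes the shoot rose, with medians of 0.74 in shoots and -0.14 in roots. In 64 genes the shoot fell, with medians of -0.87 in shoots and 0.12 in roots. The estimated effects had opposite signs in 276 of the 349 genes, or 79.1%, against 39.4% of both-organ genes tested, and selection by a large difference favours such genes.

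The classes lean on scaling and on single libraries to different degrees. With total-count scaling the class of rising shoot genes held 51 and that of falling shoot genes 120. Without deficient root library 3 the class of rising root genes held 165, and without deficient root library 2 it held 33 and the falling root class 56. Without resupplied shoot library 1, 2 or 3 the rising shoot class held 34, 40 and 50, and without deficient shoot library 1 or 3 it held 46 and 33. The falling shoot class held 36 without deficient shoot library 1, and 40 and 34 without resupplied shoot library 2 or 3. Without deficient shoot library 2 or 3 or resupplied shoot library 1 the falling root class held 62, 61 and 59. The rising root class held 34 without deficient shoot library 2, and 36 and 40 without resupplied shoot library 2 or 3. In 19 genes neither organ was called by itself while the difference was, and in all 19 the estimated effects had opposite signs. That is close to forced, because 2 effects of the same sign give a difference smaller than the larger of them, with a larger SE.

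**Figure D3:**
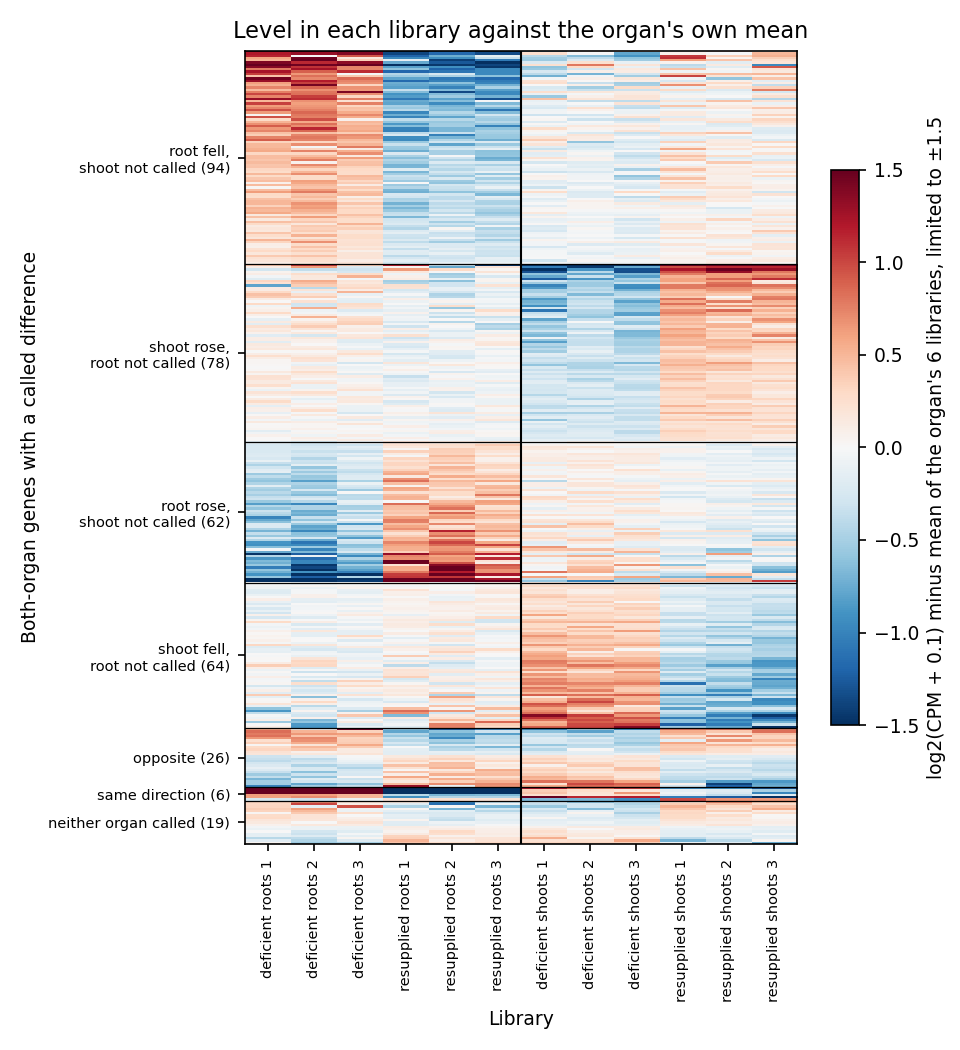
Rows are the 349 called both-organ genes grouped by class, columns are the 12 libraries, and colour is log2(CPM + 0.1) minus the mean of that organ's 6 libraries, limited to ±1.5. The block of 94 genes that fell in roots is red in deficient and blue in resupplied root libraries and pale in the shoot libraries, and the other classes show the matching contrast in their own organ.

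By the naming rule, the 2 most negative and 2 most positive organ differences were taken among called both-organ genes with at least 10 CPM in some group. The most negative was Zm00004b031513. Its level in roots was 98.2, 92.4 and 45.6 CPM in the deficient libraries and 3.21, 7.18 and 2.53 CPM in the resupplied ones. In shoots it was 2.64, 4.38 and 4.90 CPM before and 4.42, 5.17 and 4.36 CPM after resupply. All 3 deficient root libraries lay above every other library, and the shoot groups overlapped. The root effect was -4.20 ± 0.42 and the shoot effect 0.23 ± 0.39 (log2, SE). The organ difference was -4.43 ± 0.56 (adjusted p = 0.0036, edgeR), and the call held under all 25 alternatives tried. On a scale over all 18 libraries this gene had 1.23 CPM in sufficient roots, against 77.9 in deficient and 4.26 in resupplied roots.

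Both named positive genes gained in roots. Zm00004b037582 went from 1.22, 0.284 and 1.495 CPM in deficient roots to 15.2, 29.4 and 17.9 CPM in resupplied roots, with no overlap. The mean in deficient roots was 0.999 CPM, so the gene passed the 1 CPM limit there through resupplied roots. In shoots it went from 1.93, 1.44 and 2.05 to 4.19, 4.14 and 6.16 CPM, also without overlap, but that shoot effect of 1.42 ± 0.43 was not called (adjusted p = 0.093). The organ difference was 2.98 ± 0.62 (adjusted p = 0.037, edgeR). This call was lost without deficient root library 1 (adjusted p = 0.056), without resupplied root library 2 or 3 (0.086 and 0.06) and without any 1 of the 6 shoot libraries (0.06 to 0.099), at 2.64 to 3.19 log2 units. It was also lost in limma-voom (0.055). Replicate blocks shared by all groups, within each organ, or joining root and shoot libraries of 1 number lost it too (0.071, 0.122 and 0.095, edgeR).

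Zm00004b022755 changed in roots alone as far as the calls go. It stood at 1.29, 1.29 and 1.18 CPM in deficient roots and at 13.2, 14.6 and 9.59 CPM in resupplied roots. In shoots it stayed between 0.794 and 1.75 CPM in all 6 libraries, with overlapping groups and a shoot effect of 0.38 ± 0.31 (log2, adjusted p = 0.59). The organ difference was 2.93 ± 0.43 (adjusted p = 0.0082, edgeR) and was called under all 25 alternatives. Sufficient roots had 12 CPM and sufficient shoots 1.13 CPM on the scale over 18 libraries.

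**Figure D4:**
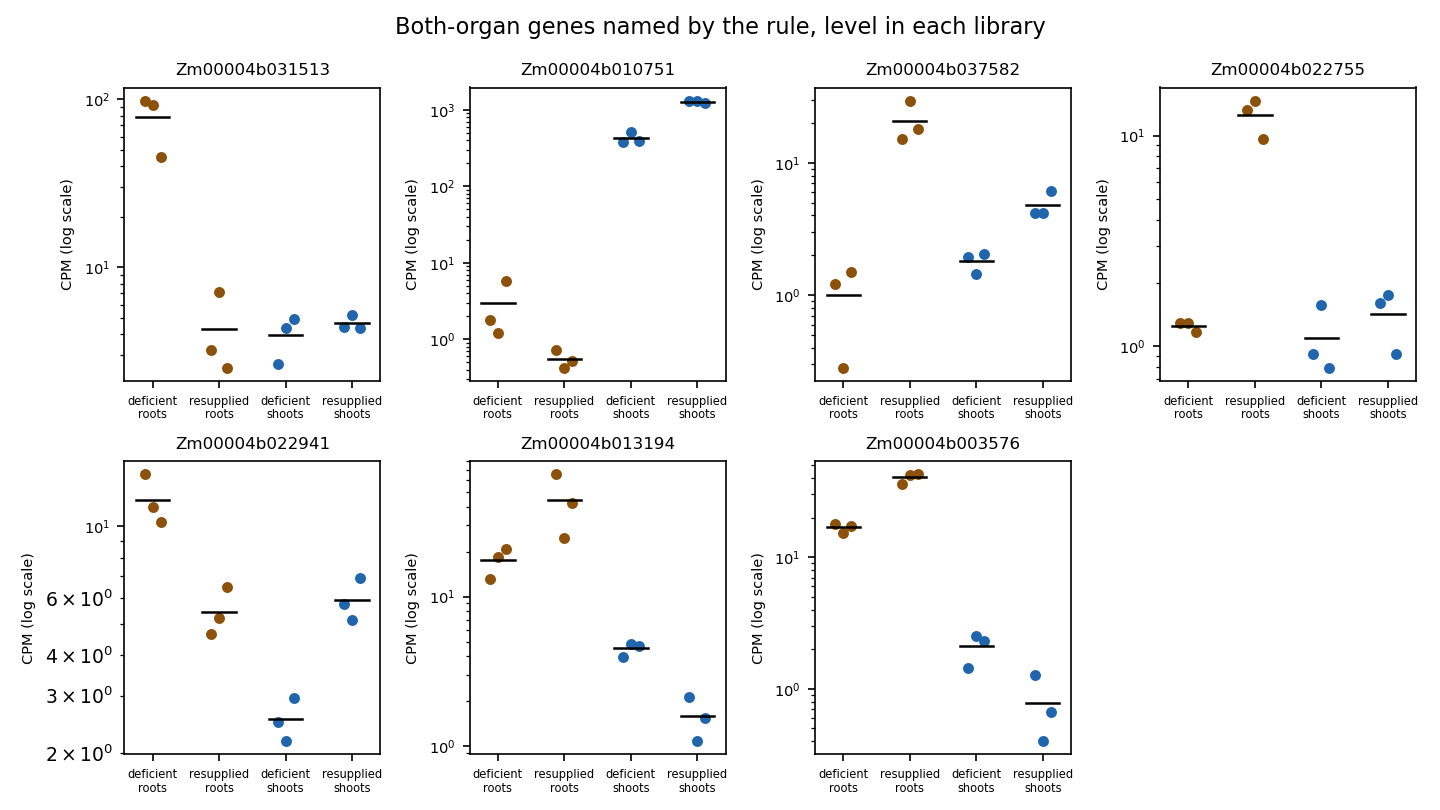
Each panel is a both-organ gene named by the rule, with CPM on a log scale in each of 3 libraries per group and the group mean as a line. Brown points are root and blue points shoot libraries. The first 4 panels hold the 2 most negative and 2 most positive called organ differences above the 10 CPM limit and the last 3 further genes that moved in opposite directions.

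Opposite movement was found at 26 of 21057 both-organ genes, or 0.123%. In 12 of them the root fell while the shoot rose, with median effects of -0.86 and 0.71 (log2). In 14 the root rose while the shoot fell, with medians of 0.66 and -0.61. All 26 organ differences stayed called in each of the 12 fits without 1 library. The 26 were chosen by opposite calls in the full fit, which favours this. The calls within the organs did not always last: the number of genes with both of them ran from 5 to 40 in those fits. Fits lacking deficient root library 1, 2 or 3 gave 17, 14 and 40, and fits lacking resupplied root library 2 or 3 gave 12 and 16. For deficient shoot library 1, 2 or 3 the number was 8, 8 and 6, and for resupplied shoot library 1, 2 or 3 it was 15, 5 and 7.

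Zm00004b010751 had the second most negative organ difference above the 10 CPM limit of the naming rule and was the most negative of the 26. In roots it was at 1.76, 1.21 and 5.85 CPM under deficiency and at 0.714, 0.424 and 0.520 CPM after resupply. In shoots it was at 376, 518 and 392 CPM under deficiency and at 1295, 1315 and 1226 CPM after resupply. The groups did not overlap in either organ, and the organ difference was -3.96 ± 0.64 (adjusted p = 0.012, edgeR). Its mean root level was 0.205% of its shoot level, where shoot genes reached 0.137% in resupplied root library 1. Resupplied roots alone had a mean of 0.553 CPM against 1279 CPM in resupplied shoots, a share below that 0.137%. The gene thus passed the 1 CPM limit in roots only through the deficient libraries. Whether these root counts came from roots was not tested. Sufficient roots had 6.26 ± 7.58 CPM on the scale over 18 libraries (SD, n = 3). Without deficient root library 3 the organ difference was -2.99 (adjusted p = 0.0013, edgeR). Without resupplied root library 1 it was -4.19 (adjusted p = 0.02, edgeR). A fit over all 18 libraries gave an adjusted p of 0.057, and limma-voom with organ weights 0.077. A replicate block joining root and shoot libraries of 1 number gave 0.0998 (edgeR).

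Zm00004b022941 reached similar levels in both organs after resupply. It fell from 14.5, 11.5 and 10.3 CPM to 4.65, 5.20 and 6.48 CPM in roots and rose from 2.49, 2.17 and 2.95 CPM to 5.74, 5.13 and 6.92 CPM in shoots. Deficient roots were therefore above deficient shoots, while the resupplied groups of the organs overlapped. The root effect was -1.15 ± 0.19 and the shoot effect 1.22 ± 0.20 (log2, SE). Their difference was -2.37 ± 0.28 (adjusted p = 0.0021, edgeR), called under all 25 alternatives.

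Zm00004b013194 and Zm00004b003576 went the other way and moved apart. Zm00004b013194 rose in roots from 13.2, 18.4 and 20.8 CPM to 65.6, 24.6 and 42.5 CPM and fell in shoots from 3.97, 4.85 and 4.69 CPM to 2.12, 1.08 and 1.55 CPM. Zm00004b003576 rose in roots from 18.03, 15.28 and 17.25 CPM to 36.1, 42.3 and 42.6 CPM. In shoots it fell from 1.45, 2.52 and 2.33 CPM to 1.28, 0.401 and 0.665 CPM. The mean in resupplied shoots, 0.781 CPM, was under the 1 CPM limit. No group overlapped its partner in the same organ for either gene. The organ differences were 2.85 ± 0.47 (adjusted p = 0.013) and 2.69 ± 0.42 (adjusted p = 0.01, edgeR). The call of Zm00004b013194 was lost in limma-voom with organ weights (adjusted p = 0.081). With a replicate block within each organ both calls were lost (adjusted p = 0.063 and 0.062, edgeR). That of Zm00004b003576 was also lost with a block joining root and shoot libraries of 1 number (0.098).

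In 6 genes both organs moved the same way to a different extent. They are outside the naming rule and are named here after their values were seen. Zm00004b018725 fell in roots from 22.6, 20.3 and 18.6 CPM to 0.586, 0.233 and 0.230 CPM. In shoots, where it was more abundant, it fell from 75.7, 58.6 and 67.5 CPM to 16.5, 17.1 and 12.6 CPM. The effects were -5.85 ± 0.28 and -2.13 ± 0.21, and the organ difference was -3.73 ± 0.34 (log2, SE, adjusted p = 0.00095, edgeR).

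Zm00004b027480 had the smallest p of all genes. It fell from 25.3, 23.5 and 28.3 CPM to 2.17, 1.52 and 1.81 CPM in roots and from 228, 212 and 199 CPM to 161, 154 and 126 CPM in shoots. Its root effect was -3.80 ± 0.14 and its shoot effect -0.54 ± 0.12 (log2, SE), a difference of -3.27 ± 0.19 (adjusted p = 2e-05, edgeR). Zm00004b033518 showed the same form, from means of 90.6 ± 9.46 to 8.86 ± 0.488 CPM in roots and from 446 ± 68.3 to 253 ± 76.2 CPM in shoots (SD, n = 3). Its organ difference was -2.54 ± 0.28 (adjusted p = 0.002, edgeR). The groups did not overlap in either organ for these genes.

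The remaining genes had smaller differences. Zm00004b034809 fell by more in roots, with an organ difference of -0.69 ± 0.13 (log2, SE, adjusted p = 0.025, edgeR). That call was lost under total-count scaling (adjusted p = 0.051) and in the fits lacking deficient root library 1 or 2, resupplied root library 2 or 3, any deficient shoot library, or resupplied shoot library 1 or 3, at adjusted p of 0.053 to 0.067. Zm00004b014563 fell by more in shoots, from 435 ± 69.5 to 72.4 ± 13.5 CPM, than in roots, from 850 ± 56.4 to 368 ± 65.4 CPM (SD, n = 3). Its organ difference was 1.38 ± 0.23 (SE, adjusted p = 0.015, edgeR). Zm00004b029121 rose more in shoots, from 24.9 ± 2.78 to 73.7 ± 9.38 CPM, than in roots, from 9.25 ± 0.764 to 12.7 ± 0.146 CPM, with a difference of -1.10 ± 0.16 (adjusted p = 0.0074, edgeR). A replicate block joining root and shoot libraries of 1 number lost the calls of these genes (adjusted p = 0.0998, 0.122 and 0.082, edgeR).

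The classes were also placed against sufficient plants in a fit over all 18 libraries. Comparisons with sufficient plants share the deficient or resupplied libraries with the organ difference, so the medians are given side by side as a description. The 94 falling root genes were 0.83 log2 units above sufficient roots under deficiency and -0.03 after resupply, and their shoot medians were -0.03 and 0.08. The 78 rising shoot genes were at -0.55 in deficient and 0.19 in resupplied shoots, and at 0.04 and -0.05 in roots.

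The 62 rising root genes had medians of -0.29 in deficient and 0.54 in resupplied roots. The 64 falling shoot genes had medians of 0.23 in deficient and -0.59 in resupplied shoots. The 14 genes with rising roots and falling shoots stood at -0.37 and then 0.22 in roots, and at 0.17 and then -0.43 in shoots. The 12 with falling roots and rising shoots stood at 0.23 and then -0.37 in roots, and at -0.26 and then 0.23 in shoots. Over all both-organ genes the same medians lay between -0.004 and 0.01.

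The called share varied little with abundance and more with organ preference. By the mean CPM of the lower organ, it was 1.41% at 1 to 5 CPM, 1.78% at 5 to 20, 1.69% at 20 to 100 and 1.75% at 100 or more. Genes at least 8-fold higher in roots were called at 6.33% (30 of 474) and those at least 8-fold higher in shoots at 4.29% (39 of 909). Genes within 8-fold were called at 1.42%, and they made up 280 of the 349. These shares are descriptions, and no test of their difference was made. Organ preference was taken from the same 12 libraries as the organ difference, so a response in 1 organ can itself create it. The called genes nearest to the limit of 1 CPM were Zm00004b010685 inside it, with 1.03 CPM in its lower organ, and Zm00004b037585 outside it, with 0.950 CPM.

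Zm00004b022943 carried the largest fitted difference among the 349 called both-organ genes and was too low for the naming rule. It is named after its values were seen. The gene passed the both-organ limit in shoots, at a mean of 1.11 CPM, only through the resupplied libraries. It was at 0 in all 3 deficient shoot libraries and at 2.03, 2.35 and 2.28 CPM in resupplied shoots, at least 40.6-fold higher when the 0 is set to the limit that its counts allow over the group. In roots it was at 2.60, 4.15 and 2.55 CPM under deficiency and at 4.47, 1.49 and 0.206 CPM after resupply, with overlap. The organ difference was called (adjusted p = 0.023, edgeR), and its fitted value of -10.97 depends on the prior count. The call was lost without resupplied root library 2, deficient shoot library 3 or resupplied shoot library 2 or 3 (adjusted p of 0.05 to 0.054).

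Among the 6539 genes under 1 CPM in at least 1 organ, 64 organ differences were called, or 0.979%. Of these 35 were negative (0.535%) and 29 positive (0.443%). Their median size of 3.95 log2 units, against 1.07 for both-organ genes, goes with low counts: 22 of the 64 had a group with no count at all, and in 32 the lower organ held under 100 counts over 6 libraries. By level, 35 of them reached 1 CPM in roots alone (1.77% of such genes), 19 in shoots alone (1.06%) and 10 in neither (0.361%). In 26 of the 35 root genes the shoot effect was the larger, and in 17 of the 19 shoot genes the root effect was. The called value thus mostly came from the organ with few counts. Without deficient shoot library 3 or resupplied shoot library 2, 42 were called in each case, and limma-voom with organ weights called 12.

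**Figure D5:**
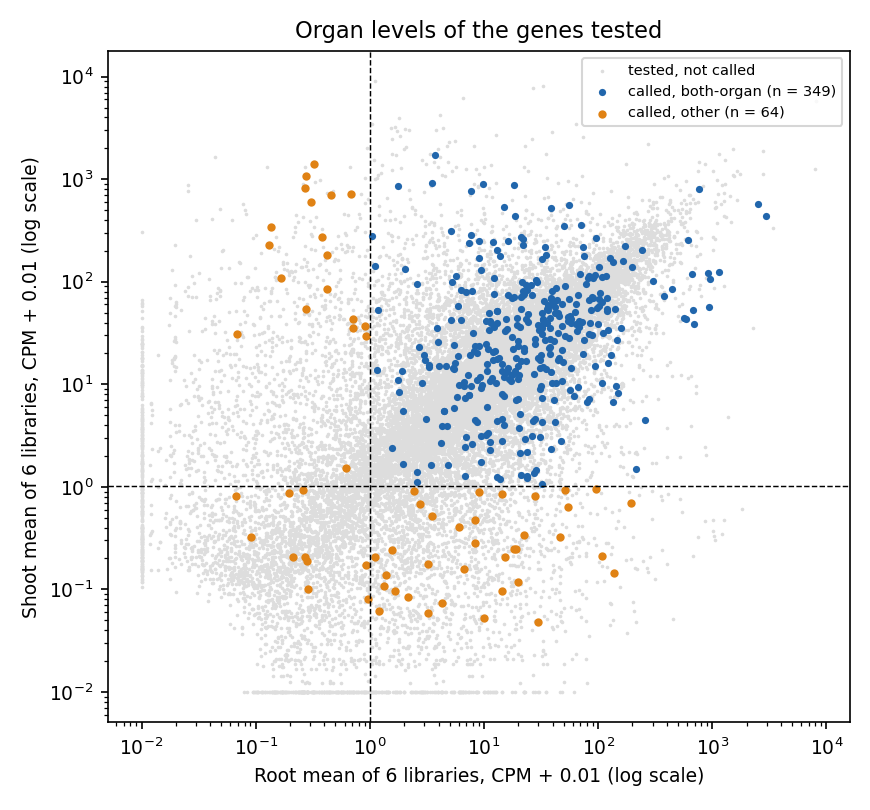
Each point is a tested gene at its mean CPM in roots and in shoots over 6 libraries, after adding 0.01 CPM, on log axes. Dashed lines mark the 1 CPM limits, blue points are the 349 called both-organ genes and orange points the 64 other called genes. A group of orange points lies at high shoot and very low root level.

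Among these called genes with at least 10 CPM in some group, the 2 most negative organ differences were those of Zm00004b016439 and Zm00004b002660. Zm00004b016439 was mainly a root transcript, at 20.67, 22 and 31.33 CPM in deficient and 16.3, 12.1 and 16.5 CPM in resupplied roots. In shoots it had 0 counts in all deficient libraries and 0.134, 0.120 and 0.396 CPM after resupply, at least 3.96-fold above the limit for 0. Its mean shoot level was 0.546% of its root level, where root genes reached up to 0.195% in shoot libraries. Zm00004b002660 was mainly a shoot transcript, with 233, 231 and 223 CPM in deficient and 244, 256 and 196 CPM in resupplied shoots. In roots it had 0.102, 0.272 and 0.348 CPM under deficiency and 0 counts after resupply, at least 4.84-fold lower. Its mean root level was 0.0522% of its shoot level. All its root counts lay in deficient roots, where shoot genes reached 0.0282 to 0.0336%. Resupplied root library 1, where shoot genes reached 0.137%, had none. Whether these counts came from roots was not tested. The adjusted p of these 2 genes were 0.018 and 0.012 (edgeR). The first call was lost in limma-voom (0.155) and with counts divided by 4 (0.077), and the second in the fit over 18 libraries (0.2) and in limma-voom (0.25).

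Above the same 10 CPM limit, the 2 most positive were those of Zm00004b000557 and Zm00004b015345. Zm00004b000557 was at 11.42, 5.098 and 13.26 CPM in deficient roots and 16.5, 42.1 and 25.6 CPM in resupplied roots. In shoots it was at 0.211, 0.413 and 0.794 CPM under deficiency and at 0 after resupply, at least 8.09-fold lower. Zm00004b015345 had 0 counts in deficient roots and 0.223, 0.0684 and 0.0605 CPM in resupplied roots, highest in library 1, against 25.9 to 33.6 CPM in all shoot libraries. Its root level was 0.191% of its shoot level. The adjusted p of these genes were 0.024 and 0.039 (edgeR). The first call was lost without deficient shoot library 3 or any 1 resupplied shoot library (0.052 to 0.057), and the second without any 1 deficient root, deficient shoot or resupplied shoot library (0.054 to 0.087). Both were also lost with counts divided by 4 (0.084 and 0.134) and in limma-voom (0.335 and 0.325).

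Some called genes of this set had such levels in their lower organ. These genes were set apart by a low level, and the share among uncalled genes was not counted. In 9 of the 19, the mean root level was at or below 0.137% of the shoot level, the highest share of shoot-gene signal in a root library. Among the 35 root genes, 3 were at or below the matching 0.195% in shoots, and among the 349 both-organ genes 0 were at or below it in either organ. Without resupplied root library 1, 75 of the other genes were called, and 48 of these were among the 64.

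The authors' deposited tables compare resupplied with deficient plants in each organ and do not test the organ difference. All 349 both-organ genes occur in both tables. Of the 188 whose root effect was called here, 188 have the same sign in the authors' deposited table and 180 an adjusted p under 0.05 there. Of the 174 with a called shoot effect these numbers are 174 and 170 in the authors' deposited table. Both analyses rest on the same samples, so matching signs are close to forced. The authors' deposited tables give Zm00004b022941 log2 fold changes of -0.91 in roots and 0.96 in shoots, with adjusted p of 1.4e-05 and 9.7e-07. Other values differ more from those found here. The authors' column labels do not say how the fold changes were estimated, so the sizes may not be on 1 scale. In the authors' deposited table for roots Zm00004b031513 has -1.28, against -4.20 here, and Zm00004b037582 has 0.59, against 4.39 here. The authors' deposited table for shoots gives Zm00004b037582 an adjusted p of 0.0086, while its shoot effect was not called here.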

How the data were processed

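RNA-seq of maize roots and shoots was analysed from the authors' deposited estimated counts per gene, 1 table per library, given as whole numbers. Trim Galore, HISAT2, StringTie and the DESeq2 package are listed in the submitters' processing notes with no version. For genome build, annotation and strand setting, nothing is given in the sources used here. Low counts were multiples of 4 in 29.6 to 33% of cases, where evenly spread whole numbers would give 1 in 4. The excess is modest. A fragment may have added about 4 counts to some genes, and totals would then overstate fragments. The 2 deposited tables of resupplied against deficient plants hold, per the file headers, a base mean (a normalised signal), a log2 fold change, a Wald score and p-values, raw and adjusted, and they were used only beside the fits.

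Counts of the 12 libraries were fitted with edgeR 4.0.16 in R 4.3.3 (TMM scaling, filterByExpr, quasi-likelihood F-test, group as the only term), and the contrast was adjusted over all 27596 genes tested. Groups and replicate numbers came from the sample titles. CPM values are TMM-scaled over the 12 libraries unless said otherwise. Standard errors came from the F statistic. A group with a count of 0 was set to a limit of 12 counts over its 3 libraries, which covers counting error only. That is about 3 fragments if each added 4 counts. The precision of most genes rests on 3 libraries per group. P-values measure the spread between libraries that the labels call biological replicates. The steps were tested on simulated counts. Alternatives used other scalings, filters, tools (limma 3.58.1, DESeq2 1.42.0), all 18 libraries, counts divided by 4, replicate blocks and 1 library left out.

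Genes were named by a rule: the 2 lowest and 2 highest organ differences among called genes with a group mean of at least 10 CPM, in both-organ genes, in the others, and in genes called in opposite directions. The comparison, sets and rule were chosen with earlier results of these data known. The organ check, the classes' placement against sufficient plants and the listing of 7 further genes were added after the values were seen.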

Additional observations from a re-analysis of the deposited data

Results flagged for a closer look

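A difference between organs is what the comparison tests, so each called result is listed here. By the test of root effect minus shoot effect, 413 of 27596 genes tested differed between roots and shoots, 349 of them both-organ genes and 64 others.

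Among the genes named, the fitted organ differences on the log2 scale were negative for Zm00004b031513 (-4.43), Zm00004b010751 (-3.96) and Zm00004b022941 (-2.37), where roots went lower than shoots. They were positive for Zm00004b037582 (2.98), Zm00004b022755 (2.93), Zm00004b013194 (2.85) and Zm00004b003576 (2.69). Genes that moved the same way in both organs had organ differences of -3.73 for Zm00004b018725, -3.27 for Zm00004b027480, -2.54 for Zm00004b033518, -1.10 for Zm00004b029121, -0.69 for Zm00004b034809 and 1.38 for Zm00004b014563.

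Fitted values of -10.97 for Zm00004b022943, -7.72 for Zm00004b016439, -7.18 for Zm00004b002660, 9.66 for Zm00004b000557 and 6.09 for Zm00004b015345 rest on a group with no count and depend on the prior count.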

How the results depend on the processing

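The sign of the organ difference held for all 18 named genes under each of 25 alternatives, and 6 of them kept their call throughout. These genes were chosen by the main fit and the alternatives reuse its libraries, which favours a kept sign. Leaving out 1 library gave 244 to 628 calls over all genes, 202 to 537 among both-organ genes and 42 to 91 among the others. DESeq2 called 1359, 1060 and 299. Limma-voom with organ weights called 12 of the others. Calls of at least 1 log2 unit numbered 193 among both-organ genes. Total-count scaling moved the median organ difference of both-organ genes from -0.01 to 0.09 and the share of negative calls among them from 57.3 to 35.3%. Counts divided by 4 gave 498 both-organ calls.

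Same-numbered libraries did not deviate together in all pairs of groups. Correlations were -0.145 to 0.0353 between organs of 1 condition and -0.094 to 0.0564 between conditions of 1 organ. Between libraries that differ in both they reached 0.104, with 0.0937, 0.104 and 0.081 for deficient roots and resupplied shoots, whose different-numbered pairs were all negative. The correlations of 1 library with a whole other group nearly cancel, so these negative values add little to the positive ones. Not every pair passed 0.1, so the numbers were not taken to pair libraries. Best matches to the own number were 2 and 4 of 12 libraries, each with 3 candidates. A replicate block shared by all groups gave 242 calls, 213 in both-organ genes and 29 in the others. Zm00004b037582, Zm00004b000557 and Zm00004b015345 lost their calls there (adjusted p = 0.071, 0.058 and 0.074, edgeR). A replicate block within each organ gave 284 calls, 193 in both-organ genes and 91 in the others. There Zm00004b013194 and Zm00004b003576 lost their calls (adjusted p = 0.063 and 0.062, edgeR). So did Zm00004b037582, Zm00004b000557 and Zm00004b022943 (0.122, 0.099 and 0.075). A replicate block joining root and shoot libraries of 1 number gave 42, 39 and 3. Under it the calls of Zm00004b031513, Zm00004b022755, Zm00004b022941, Zm00004b013194, Zm00004b018725, Zm00004b027480 and Zm00004b033518 held. Those of the other named genes were lost (adjusted p of 0.082 to 0.219, edgeR). Depth limits mainly the genes under 1 CPM in 1 organ.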
